A study of Mus musculus with 24 samples.

Results

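Loss of the glutamate transporter EAAT2 aimed at neurons was compared with Cre-negative brain in mice of the syn line, whose Cre recombinase is driven by synapsin. The comparison took the 12 libraries labelled with cell type Syn, of 24 in the series, and set the 6 with genotype Cre_pos against the 6 with genotype Cre_neg. The series also holds a gfap line, with 6 libraries of each genotype, which entered the fit to share its estimate of spread. The study asked how EAAT2 deficiency differs between neurons and astrocytes. Per the labels, the Cre-positive mice were syn-Cre+ EAAT2-/- and the Cre-negative mice syn-Cre- EAAT2+/+, with 6 mice in each group. The Cre-negative mice therefore differ from the Cre-positive mice both in Cre and in the EAAT2 genotype given, and no group separates these. The tissue is given as brain, and the sources used here do not give the brain region, age, sex, strain or day of collection. RNA was total tissue RNA, so the libraries hold RNA of all cell types, while the transgene acts in neurons.

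EAAT2, encoded by Slc1a2, is a sodium-driven carrier that takes up glutamate released at synapses. Most of it sits on astrocyte processes, and a smaller share is found on axon terminals of neurons. Astrocytes also take up potassium and water at their endfeet around vessels, where the water channel Aqp4 is concentrated. Transthyretin (Ttr) is a carrier protein made in the brain by the epithelium of the choroid plexus, the tissue in the ventricles that secretes cerebrospinal fluid, so its level shows how much of that epithelium was taken along with the tissue.

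The 12 libraries held 41596313 to 57802986 counts in genes, and 19726 genes were tested. Markers of neurons and of astrocytes were high in every library, with the vesicle fusion gene Snap25 at 2031 to 2457 and the glutamate transporter Slc1a3 at 588 to 745 CPM (counts put on one common library size). Fold changes are Cre-positive against Cre-negative on the log2 scale, and a gene was called when its Benjamini-Hochberg adjusted p from edgeR's quasi-likelihood test was under 0.05. In bulk tissue, fewer cells of a type and less RNA per cell cannot be told apart.

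Slc1a2 itself (ENSMUSG00000005089, GRCm38 chromosome 2, 102658659 to 102790784) did not differ by the test. It stood at 2616 CPM in the lowest, 3031 at the median and 3235 in the highest library labelled Cre-positive, against 3227, 3292 and 3461 CPM in those labelled Cre-negative. The groups overlapped through Cre-positive library 3, and the other 5 Cre-positive libraries lay below every Cre-negative one. The difference was −0.14 on the log2 scale, with an SE of 0.08 and an interval that ran from −0.30 to 0.02 at 95% (edgeR adjusted p = 1.00). The value was −0.15 with Ttr in the model. The whole-gene count need not drop when an exon is deleted, and the sources used here do not name the deleted exon, so directions are between libraries as labelled.

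The amount of choroid plexus split each genotype into equal parts. Ttr stood at 45.0, 88.7 and 144 CPM in 3 Cre-positive libraries and at 1971, 2640 and 4780 CPM in the other 3. In the Cre-negative libraries it stood at 73.0, 79.8 and 97.5 CPM in 3 and at 3702, 4793 and 5015 CPM in the other 3. No library lay between the ranges, and libraries above 1000 CPM are called Ttr-rich and the others Ttr-poor. This split was the first principal component of the 12 libraries, with 40.1% of the variance, and Ttr-rich libraries lay at 6.04 to 16.4 on it against −12.7 to −9.28 for the Ttr-poor ones. The Ttr difference between the genotypes was −0.51 (SE 1.12, edgeR adjusted p = 1.00).

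The second component, with 13.9% of the variance, separated the Cre-negative libraries by the number that opens each library's title. The labels do not say what that number stands for. It was 47, 48 or 49 in the Cre-positive group and 50 or 52 in the Cre-negative group, with 0 numbers shared, so number and genotype cannot be told apart and no comparison of genotypes within a number exists. On that component the 3 libraries of number 50 (Cre-negative 1 to 3) lay at −12.7 to −4.64, and the 3 of number 52 (Cre-negative 4 to 6) at 1.92 to 14.7. The library at 14.7, Cre-negative 5, also stood apart from its group with 7.46% ambiguous reads, 4.71% unaligned reads and 11.1% of reads outside genes. The Cre-positive numbers lay closer together, 47 (libraries 1 and 2) at −4.64 to −2.26, 48 (libraries 3 to 5) at 0.76 to 2.09 and 49 (library 6) at 3.41. Among libraries of a single genotype, 143 genes were called by edgeR between numbers 50 and 52, 0.725% of those tested, with 100 higher in number 50 and 43 lower. Between numbers 47 and 48 edgeR called 0, with 931 at an unadjusted p under 0.05 (4.72%), against 2310 (11.7%) between 50 and 52. The genotype comparison called none of the 143.

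**Figure D1:**
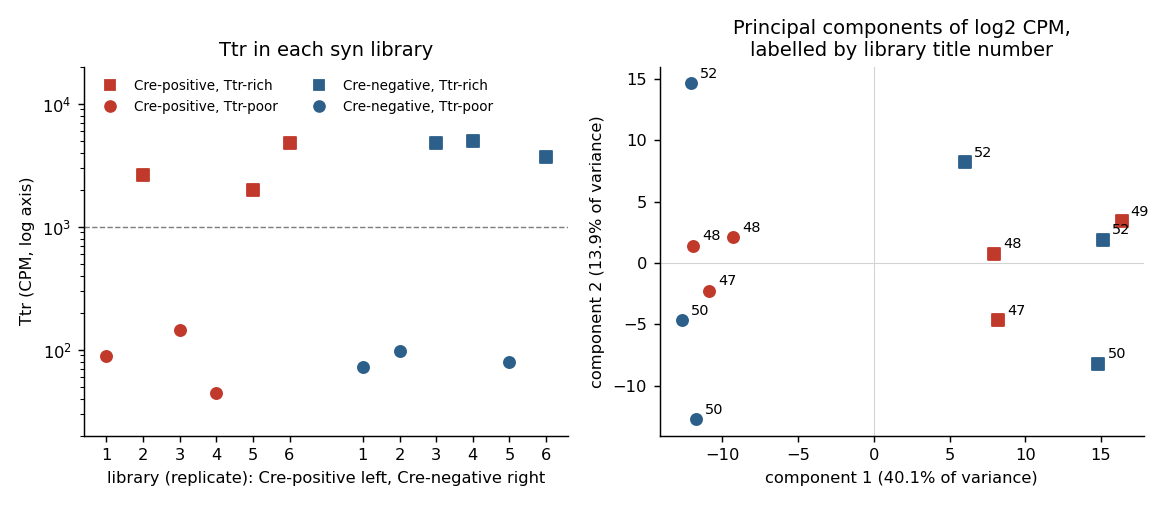
Left, Ttr in each of the 12 syn libraries on a log axis in CPM, with the 1000 CPM limit dashed. Right, the first and second principal components of log2 CPM, each library labelled by the number that opens its title; the Ttr-rich libraries (squares) all lie above 6 on the first component, and the libraries of number 50 lie below those of number 52 on the second.

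Across all genes, the genotype comparison called 1 gene higher and 0 lower of 19726 (0.00507%). That gene was Aqp4 (ENSMUSG00000024411, chromosome 18, 15389496 to 15410982), the water channel of astrocyte endfeet. It stood at 178 CPM in the lowest, 210.2 at the median and 218 in the highest Cre-positive library, against 126, 142 and 153 CPM in the Cre-negative libraries, with no overlap. Aqp4 rose 1.46-fold (log2 fold change 0.55, SE 0.06, 95% interval 0.42 to 0.68, edgeR adjusted p = 2.03e-05). The difference was as large in Ttr-rich libraries (0.55, adjusted p = 0.0163) as in Ttr-poor ones (0.55, adjusted p = 0.0259), with 3 libraries against 3 in each. Its slope on Ttr was −0.0042 per doubling, and between title numbers it differed by 0.03 within the Cre-negative and 0.01 within the Cre-positive group.

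At an unadjusted p under 0.05 edgeR had 922 genes (4.67%), 451 on the higher (2.29%) and 471 on the lower side (2.39%). Other tools called more, DESeq2 14 genes (0.071%), 8 of them higher, and limma-voom 7 (0.0355%), 4 of them higher. Groups that did not overlap were found for 21 genes with all Cre-positive libraries above (0.106%) and 19 with all below (0.0963%). For the 9976 genes with a mean of at least 10 CPM, the 95% interval of the fold change lay within 1.5-fold of no change for 98.6% and within 2-fold for 99.6%. Over all 19726 genes these shares were 71.5% and 87.7%, so smaller changes in weakly expressed genes were not detectable at this depth and group size.

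The genes next in order of p on the higher side included 3 that missed the threshold narrowly. Mmp14, a membrane-bound protease that cleaves extracellular matrix (chromosome 14, 54431612 to 54445364), stood at 15.3, 16.6 and 17.8 CPM in the lowest, median and highest Cre-positive library and at 9.48, 11.5 and 12.6 CPM in the Cre-negative ones. All 6 Cre-positive libraries lay above all Cre-negative ones. Its log2 fold change was 0.56 (SE 0.11, edgeR adjusted p = 0.0697), which missed the threshold. DESeq2 and limma-voom both called it (adjusted p = 0.00219 and 0.0121), as did edgeR on the 12 syn libraries alone (adjusted p = 0.0092). The value was 0.50 in Ttr-rich and 0.63 in Ttr-poor libraries.

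Ednrb, the endothelin B receptor, stood at 50.2, 63.2 and 65.3 CPM in the lowest, median and highest Cre-positive library, against 43.1, 48.7 and 52.2 CPM in the Cre-negative ones. Only Cre-positive library 1 overlapped the other group. The log2 fold change was 0.34 (edgeR adjusted p = 0.0697), and without that library it was 0.40 and passed (adjusted p = 0.00573). Hopx, a homeodomain protein without DNA binding that is made by astrocytes and radial glia, stood at 38.2, 52.2 and 53.7 CPM against 32.5, 35.7 and 42.8 CPM. Only Cre-positive library 5 overlapped. Its log2 fold change was 0.44 (edgeR adjusted p = 0.0697), and 0.51 without that library (adjusted p = 0.00214). In Ednrb and Hopx the library left out was picked for its overlap, so the lower p values are no separate support. Exons of Hopx overlap a gene on the other strand, Hopxos, and the sources used here do not give the strand setting of the counts.

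Smaller p values on the higher side also belonged to Rftn1, a lipid raft protein, at 14.1 to 20.2 against 12.7 to 15.3 CPM (log2 fold change 0.33, edgeR adjusted p = 0.308), and to Tst, the mitochondrial enzyme rhodanese, at 25.8 to 31.2 against 17.8 to 27.2 CPM (0.37, adjusted p = 0.308). Npbwr1, a neuropeptide receptor, stood at 1.89 to 3.68 against 1.27 to 2.32 CPM (0.72, adjusted p = 0.338). In each of these 3 genes the groups overlapped and 5 of 6 Cre-positive libraries lay above the highest Cre-negative one. Among genes in the lists, the gap junction gene Gja1 (229 to 252 against 191 to 225 CPM, 0.17) and the endothelial receptor gene Kdr (15.4 to 16.9 against 10.2 to 14.5 CPM, 0.31) had no overlap and did not pass (edgeR adjusted p = 0.579 and 0.841). Kdr went against most of its list, as 8 of the 12 endothelial markers measured were negative, with a median of −0.03.

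On the lower side, Hif3a, an oxygen-sensing transcription factor subunit (chromosome 7, 17031507 to 17062427), stood at 1.66, 3.43 and 4.87 CPM in the lowest, median and highest Cre-positive library. In the Cre-negative libraries it stood at 5.77, 8.36 and 12.6 CPM, with no overlap. The difference was −1.33 on the log2 scale (SE 0.27, interval −1.88 to −0.77 at 95%, edgeR adjusted p = 0.168). The value was −1.09 in Ttr-rich and −1.54 in Ttr-poor libraries. Between title numbers 50 and 52 it differed by 0.39, and between 47 and 48 by −0.92, neither of which passed (edgeR adjusted p = 0.727 and 1.00). DESeq2 called Hif3a (adjusted p = 0.00754) and limma-voom did not.

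A pair of genes of cortical interneurons lay lower. Pthlh, a secreted peptide hormone, stood at 0.586, 0.931 and 1.07 CPM in the lowest, median and highest Cre-positive library, against 1.51, 1.74 and 2.28 CPM, with no overlap (log2 fold change −0.96, edgeR adjusted p = 0.168). Nxph1, a secreted ligand of neurexins, stood at 21.5, 24.8 and 38.9 CPM against 32.8, 36.3 and 40.2 CPM. Here 1 library, Cre-positive 5, reached the Cre-negative range and the other 5 lay below it. The log2 fold change was −0.46 (edgeR adjusted p = 0.263), and without that library it was −0.59 and passed (adjusted p = 5.74e-05). The library left out was picked for its overlap, so that pass is no separate support. Of the 15 inhibitory neuron markers measured, 11 were negative with a median of −0.05 (−0.07 without Cre-positive library 5), where 51.4% of all genes were negative and their median was −0.0029. An unadjusted p under 0.05 was reached by 3 of the 15, all on the lower side, where 2.39% of all genes reached it. Pthlh and Nxph1 belong to the list and are among the 3, so the count is no separate support for them. Between title numbers 50 and 52 the list had a median of −0.05, with 4 of 15 higher in 50. Between 47 and 48 it was −0.06, with 5 of 15 higher in 47. In these 2 comparisons Nxph1 differed by −0.22 and −0.32 (edgeR adjusted p = 0.467 and 0.956), and Pthlh by −0.15 and 0.0036.

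**Figure D2:**
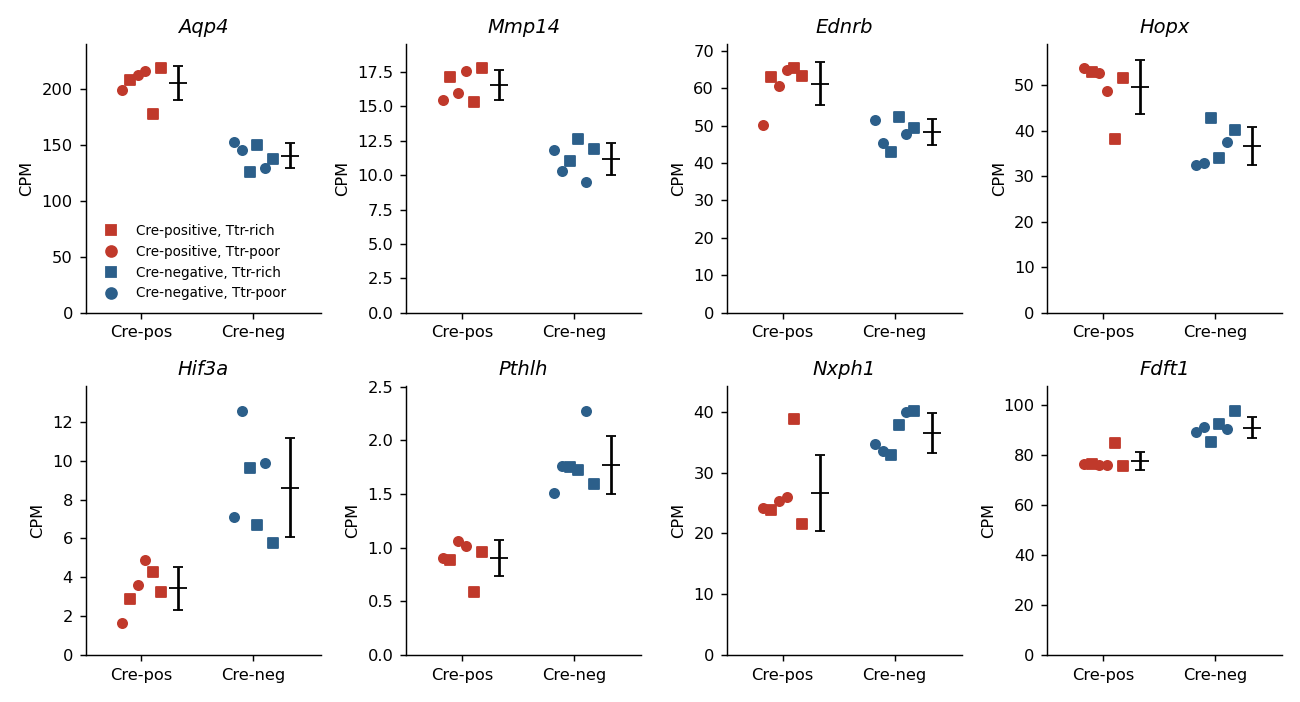
CPM per library of 8 genes among those of smallest p, Cre-positive in red and Cre-negative in blue, squares Ttr-rich and circles Ttr-poor, with the group mean and SD (n = 6) as bars; every axis starts at 0. Aqp4, Mmp14, Hif3a, Pthlh and Fdft1 have groups that do not overlap, and in Hopx and Nxph1 Cre-positive library 5 is the one that reaches the other group.

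Cre-positive library 5 stood apart from the rest of its group in markers of brain regions as well. It held the highest level of Tcf7l2, a thalamic marker, at 15.5 CPM where the group median was 5.03, and of Drd2, a dopamine receptor of the striatum, at 7.92 CPM where the median was 2.51. It also held the highest Calb2, the calcium binder calretinin and a member of the cerebellum list, at 56.7 CPM against a median of 34.9. For the summed level of the 8 cerebellum markers it stood at 181 CPM, against a group median of 72.9 and a Cre-negative range of 58.1 to 72.2. That list had a median log2 fold change of 0.42 with 7 of 8 positive, and 0.15 with 5 of 8 positive without this library. For the summed level of the 7 thalamic and hypothalamic markers it stood at 176 CPM, against a group median of 91.8 and a Cre-negative range of 88.7 to 115. The median of that list was 0.29 with 5 of 7 positive, and 0.04 with 4 of 7 positive without it. The part of tissue region in the values of Nxph1 and Hopx was not tested.

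Further genes on the lower side had smaller differences. Myrip, a linker of vesicles to myosin, stood at 52.8 to 61.1 against 59.0 to 73.6 CPM (log2 fold change −0.25, edgeR adjusted p = 0.132) and was called by DESeq2 and limma-voom. Mertk, a receptor by which astrocytes and microglia engulf debris, stood at 32.5 to 39.9 against 38.4 to 53.3 CPM (−0.32, adjusted p = 0.366). Within the Cre-negative group Mertk was 0.34 higher in title number 50 than in 52 (edgeR adjusted p = 0.0701). Dkkl1, a secreted protein related to Dickkopf, stood at 0.644 to 1.78 against 0.801 to 4.29 CPM (−1.34, adjusted p = 0.343). In these 3 genes the groups overlapped, and 4 of 6 Cre-positive libraries lay below every Cre-negative one.

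Each gene drawn by Ttr class kept its sign in both classes. These genes were picked from these same 12 libraries, so that is a description and no separate support. Within Ttr-rich libraries edgeR called 3 genes (0.0152%), and within Ttr-poor libraries 1 (0.00507%), Aqp4 being in both. The other genes called in Ttr-rich libraries were Ebf3, a transcription factor of the EBF family, and Sln, a small inhibitor of the calcium pump. Both are named here because they were called in that class, after their values were seen.

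**Figure D3:**
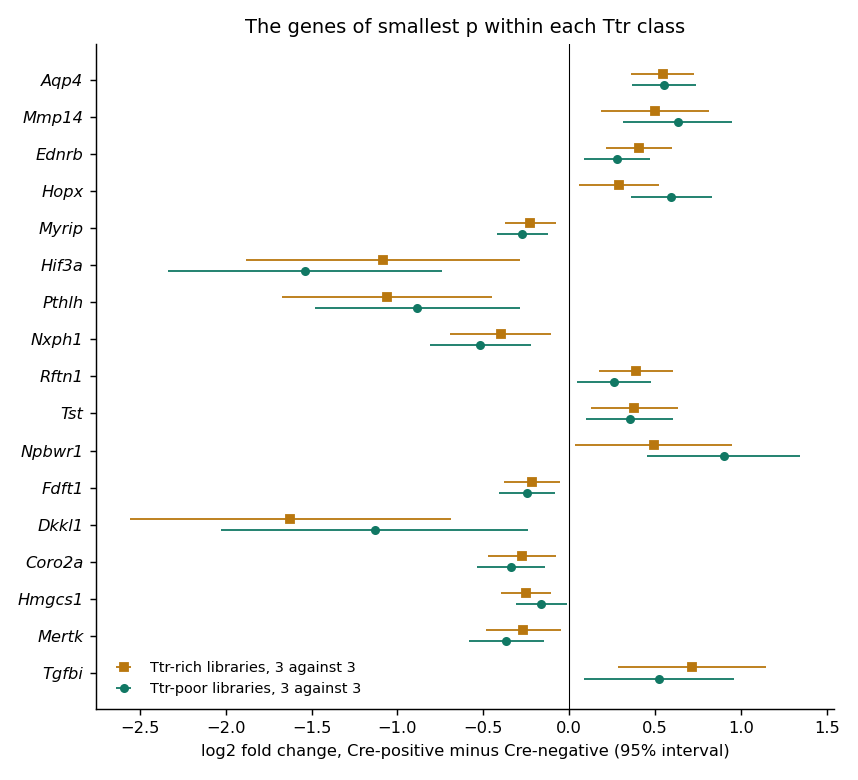
Log2 fold change, Cre-positive minus Cre-negative, within the Ttr-rich (squares) and Ttr-poor (circles) libraries for the genes of smallest p, with 95% intervals, 3 libraries against 3 in each class. Aqp4 lies at 0.55 in both classes, and no gene shown changes side.

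Ebf3 was the 1 gene whose genotype difference itself differed between the classes. It stood at 2.54, 4.09 and 4.80 CPM in the Ttr-rich Cre-positive libraries and at 0.714, 0.479 and 1.05 CPM in the Ttr-rich Cre-negative ones. In the Ttr-poor libraries it stood at 0.668 to 0.800 CPM in the Cre-positive and at 0.796 to 0.946 CPM in the Cre-negative group. The 3 high libraries were thus the Ttr-rich Cre-positive ones, and all others lay near 1 CPM or below. The fold change was 2.34 in Ttr-rich and −0.26 in Ttr-poor libraries, a difference of 2.60 (SE 0.41, edgeR adjusted p = 0.0164). Over all genes 999 (5.06%) had an unadjusted p under 0.05 for that difference.

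Sln stood at 1.06, 2.06 and 2.09 CPM in the Ttr-rich Cre-positive libraries, where it rose by 2.39 on the log2 scale (edgeR adjusted p = 0.0380), and at 0.192 to 0.513 CPM in the Ttr-rich Cre-negative ones. The Ttr-poor libraries of both genotypes lay at 0.0742 to 0.328 CPM. Markers of meningeal fibroblasts were high in some of these libraries as well. Their summed level was 253, 258 and 408 CPM in the Ttr-rich Cre-positive and 296, 366 and 193 CPM in the Ttr-rich Cre-negative libraries, and these groups overlapped. All 12 measured members of the list were positive between the genotypes, with a median of 0.37, which was 0.64 in Ttr-rich and −0.03 in Ttr-poor libraries. Without Cre-positive library 5 the median was 0.24 with 10 of 12 positive, and without title number 50 it was 0.23 with 11 of 12. Over all 12 libraries the summed level ran from 138 to 408 CPM, median 203, in Cre-positive and from 91.2 to 366 CPM, median 163, in Cre-negative libraries, and 0 of the 12 were called. Collagen gene Col1a1 stood at 4.00 to 12.2 against 3.22 to 6.11 CPM and the matrix proteoglycan Lum at 3.52 to 7.94 against 2.20 to 5.77 CPM. The part of meningeal tissue in Ebf3 and Sln was not tested.

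Adding the log2 level of Ttr to the model allowed for choroid plexus content gene by gene. The slope on Ttr was called by edgeR for 517 genes (2.62%), 506 rising (2.57%) and 11 falling (0.0558%). The genes that rose most surely were those of the epithelium, with the water channel Aqp1 at a slope of 0.90 log2 units per doubling of Ttr, Mfrp at 1.04, the bicarbonate carrier Slc4a5 at 1.02 and the folate receptor Folr1 at 0.84. All 16 choroid plexus markers had a called rising slope, Ttr itself being the covariate.

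The genotype difference of the choroid plexus list went from a median of −0.48, with 16 of 16 members negative, to −0.05 with 10 of 16 negative. Without Cre-negative library 5 the first of these medians was −0.72. For its 15 members other than Ttr the median standard error dropped from 0.927 to 0.213. Among single genes, Tmem72 went from −0.40 to 0.24, Krt8, an epithelial keratin, from −0.36 to 0.19, Mfrp from −0.65 to −0.09 and Slc4a5 from −0.56 to −0.01. Six3, a homeodomain factor of the forebrain, went from 0.86 to 0.29, and both values rest on single libraries. Cre-positive library 5 held 6.18 CPM of it, without which the first was −0.31, and with the Ttr term leaving out 1 library gave −0.74 to 0.67 with 3 changes of sign. Rpph1, the RNA of ribonuclease P, went from −4.08 to −3.39, where Cre-negative library 5 held 34.4 CPM and the highest Cre-positive library 0.789 CPM. None of these was called in either fit.

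Outside that tissue the term changed little. Of all genes, 365 (1.85%) moved by more than 0.1, and the median standard error went from 0.105 to 0.102. Aqp4 remained the 1 gene called of 19725 (0.00507%), at 0.55 (edgeR adjusted p = 2.59e-05), with 1016 genes (5.15%) at an unadjusted p under 0.05. With the term DESeq2 called 15 genes (0.076%) and limma-voom 9 (0.0456%). Tgfbi, a secreted matrix protein with a called slope on Ttr (0.10 per doubling, edgeR adjusted p = 0.0069), stood at 3.14 to 8.25 against 2.72 to 4.64 CPM, and its adjusted p went from 0.567 to 0.104 while its fold change went from 0.63 to 0.65. Coro2a, an actin-binding protein, stood at a median of 18.2 against 21.7 CPM, with 5 of 6 Cre-positive libraries below the other group, and went from −0.31 (edgeR adjusted p = 0.359) to −0.32 (adjusted p = 0.0976). DESeq2 called both with the term.

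**Figure D4:**
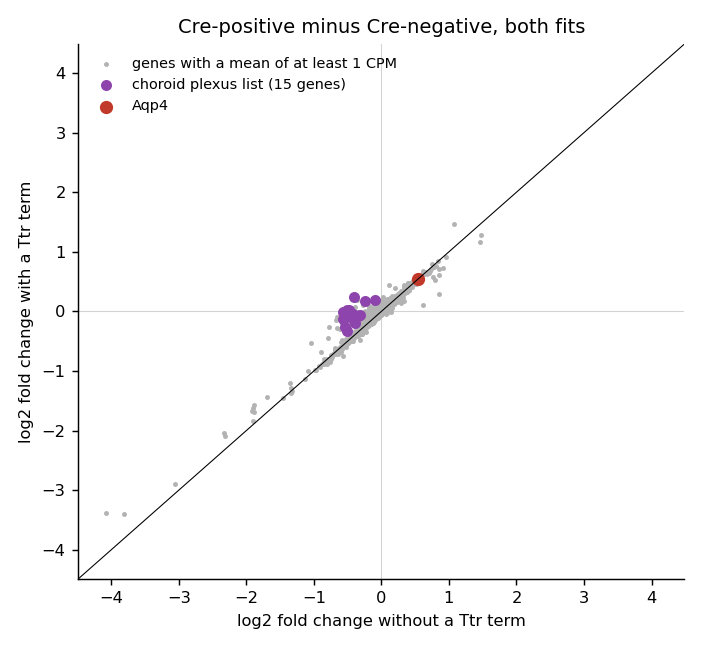
Log2 fold change, Cre-positive minus Cre-negative, without (horizontal) and with (vertical) a Ttr term, for genes with a mean of at least 1 CPM in grey, the 15 choroid plexus markers other than Ttr in purple and Aqp4 in red; the line marks equal values. The choroid plexus markers leave the line toward 0 and Aqp4 stays on it at 0.55.

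The gene lists are described by counts and medians, beside 51.4% of all genes negative and a median of −0.0029. Of the 426 listed genes tested, Aqp4 was the only one called. Genes of cholesterol synthesis had a negative median in both Ttr classes and with each of title numbers 47, 48, 50 and 52 left out. Of 22 measured, 20 were negative, with a median of −0.11, and 7 had an unadjusted p under 0.05 on the lower side, where 2.39% of all genes did. Their summed level ran from 1146 to 1258 CPM in Cre-positive and from 1285 to 1376 CPM in Cre-negative libraries, with no overlap. The median was −0.16 in Ttr-rich (18 of 22 negative) and −0.08 in Ttr-poor libraries (15 of 22). It was −0.14 and −0.07 without title numbers 50 and 52. Between those numbers it was −0.03, with 10 of 22 higher in 50. Between 47 and 48, within the Cre-positive group, it was −0.07, with 4 of 22 higher in 47.

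Fdft1, squalene synthase (chromosome 14, 63145150 to 63179578), stood at 75.3, 76.1 and 84.8 CPM in the lowest, median and highest Cre-positive library and at 85.2, 90.7 and 97.7 CPM in the Cre-negative ones, with no overlap (log2 fold change −0.23, SE 0.05, edgeR adjusted p = 0.343). Hmgcs1, the synthase at the start of the mevalonate pathway, stood at 168 to 194 against 194 to 222 CPM (−0.21, adjusted p = 0.359), with 5 of 6 Cre-positive libraries below the other group. Sqle, squalene epoxidase, stood at 55.0 to 64.1 against 60.6 to 69.6 CPM (−0.18, adjusted p = 0.579). Fdft1 and Hmgcs1 have exons that overlap a gene on the other strand. Limma-voom called Fdft1 (adjusted p = 0.0448).

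These enzymes are known targets of SREBP2, which binds sterol regulatory elements. The motif TCACNCCAC, searched on both strands of 300-base RefSeq promoter windows (GRCm38.p6), was in 408 of 32851 windows (1.24%) and in 1 of the 16 listed enzymes that had a window, Hmgcs1. It is shown because Hmgcs1 is the start of the pathway. The capitals mark the motif, at positions −137 to −129 from the annotated start, at chr13:119690199-119690237 on the plus strand.
Hmgcs1: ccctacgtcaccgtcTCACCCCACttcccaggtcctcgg

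Genes induced by glucocorticoids were negative without exception, 18 of 18, with a median of −0.19 and 10 at an unadjusted p under 0.05 on the lower side (2.39% of all genes). Their summed level ran from 629 to 716 CPM in Cre-positive and from 717 to 985 CPM in Cre-negative libraries, with no overlap. The median was −0.09 in Ttr-rich (14 of 18 negative) and −0.30 in Ttr-poor libraries (18 of 18). It was −0.15 with 16 of 18 negative without Cre-negative library 2, the highest of its group. Between title numbers 50 and 52 it was 0.23, with 15 of 18 higher in 50, and the genotype median was −0.13 without number 50 and −0.25 without number 52. Hif3a, described above from these same libraries, belongs to the list, so the count is no separate support for it.

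Beside Hif3a, the list held Plin4, a lipid droplet coat protein, at 2.12, 3.82 and 4.73 CPM in the lowest, median and highest Cre-positive library and at 4.25, 6.92 and 23.2 CPM in the Cre-negative ones (log2 fold change −1.46, edgeR adjusted p = 0.415). The 3 highest, 7.46, 23.2 and 12.2 CPM, were the libraries of title number 50, and the other Cre-negative libraries lay at 4.25 to 6.38 CPM, overlapping the Cre-positive range. Map3k6, a stress kinase, stood at 1.41 to 2.87 against 2.44 to 4.88 CPM (−0.62) and Sult1a1, a sulfotransferase, at 3.84 to 5.44 against 4.81 to 9.76 CPM (−0.50). Tsc22d3, the glucocorticoid-induced leucine zipper, stood at 41.6 to 58.5 against 55.6 to 103.5 CPM (−0.49). None passed in edgeR (adjusted p = 0.607 for Map3k6, 0.608 for Sult1a1 and 0.753 for Tsc22d3).

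The palindromic glucocorticoid response element, AGAACA and TGTTCT with any 3 bases between them, was in 3 of the 32851 windows (0.00913%, both strands) and in 1 of 17 listed genes with a window, Sgk1. Sgk1, a kinase that raises sodium channel activity, stood at 56.8 to 69.4 against 63.4 to 87.5 CPM (log2 fold change −0.27, edgeR adjusted p = 0.973). The capitals mark the element, at positions −189 to −175 from the annotated start, at chr10:21993686-21993730 on the plus strand.
Sgk1: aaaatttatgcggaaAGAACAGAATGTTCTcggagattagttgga

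Core clock genes were negative for 17 of 18, with a median of −0.14, −0.09 in Ttr-rich and −0.16 in Ttr-poor libraries. It was −0.13 and −0.09 without title numbers 50 and 52. Between those numbers it was −0.07, with 8 of 18 higher in 50. There edgeR called 1 of the 18, Ciart, lower in 50 (−0.79, adjusted p = 0.0181). Between 47 and 48, within the Cre-positive group, the median was −0.11, with 3 of 18 higher in 47 and none called. In the genotype comparison an unadjusted p under 0.05 was reached by 4 of the 18, all lower, where 2.39% of all genes reached it. Nr1d2, a repressor of the clock loop, stood at 92.6 to 116 against 112 to 126 CPM (−0.17, edgeR adjusted p = 0.750), and Per2 at 27.9 to 38.8 against 33.7 to 56.8 CPM (−0.28, adjusted p = 0.841). Both had overlapping groups, and Per2 was 0.43 higher in number 50 than in 52 (edgeR adjusted p = 0.0597). The sources used here do not give the hour of tissue collection.

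Heat shock and unfolded protein genes had a genotype median whose sign turned when the libraries of 1 title number were left out. All 20 were negative over the 12 libraries, with a median of −0.16 (−0.10 without Cre-negative library 2), but 7 of 20 were in Ttr-rich libraries (median 0.01) and 20 of 20 in Ttr-poor ones (−0.33). Without title number 50 the median was 0.14 with 3 of 20 negative, and without number 52 it was −0.39 with 20 of 20 negative. Between numbers 50 and 52, within the Cre-negative group, 20 of 20 were higher in 50, with a median of 0.55, and edgeR called 12 of them. Over all 19726 genes it called 143 in either direction (0.725%), 100 of them higher in 50. Between Cre-positive numbers 47 and 48, 18 of 20 were higher in 47, with a median of 0.22 and none called.

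Hspa5, the chief chaperone of the endoplasmic reticulum, stood at 409.8, 425 and 407 CPM in the libraries of number 50 and at 219.8, 195 and 223 CPM in those of number 52. The Cre-positive libraries held 272 and 319 CPM under number 47, 208, 232 and 238 CPM under 48, and 226 CPM under 49. They lay below all libraries of number 50 and overlapped those of number 52. Hspa5 was 0.96 higher in number 50 than in 52 on the log2 scale (SE 0.08, edgeR adjusted p = 2.4e-07), against a genotype difference of −0.33 (SE 0.17, edgeR adjusted p = 1.00).

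Other members rose in number 50 in the same way. Pdia6, a disulfide isomerase, stood at 128 to 139 CPM in number 50 and 79.7 to 90.4 CPM in 52 (0.64). The calcium-binding chaperone Calr stood at 411 to 426 against 290.5 to 310.5 CPM (0.48), and Hsp90b1, the reticulum's Hsp90, at 255 to 287 against 192 to 206 CPM (0.43). Creld2, a secreted stress protein, stood at 14.4 to 21.5 against 8.98 to 10.2 CPM (0.88). Sdf2l1, a partner of Hspa5, stood at 11.5 to 14.3 against 5.15 to 8.30 CPM (1.04, edgeR adjusted p = 0.00309), and Xbp1, a transcription factor of the unfolded protein response, at 77.8 to 103 against 55.7 to 65.2 CPM (0.62). In each of these 6 genes the libraries of 50 and 52 did not overlap, and the difference passed in edgeR. Sdf2l1 and Xbp1 were named by the rule, and the others for the element shown next, after their values were seen.

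The endoplasmic reticulum stress element, CCAAT and CCACG with any 9 bases between them, was in 39 of the 32851 windows (0.119%, both strands) and in 5 of the 17 listed members with a window. They are shown as the members with the element. Members without a match differed between the Cre-negative sets by as much, Sdf2l1 by 1.04 among them. The capitals mark the element, read in the gene's direction, so that it appears as its reverse complement in Calr, Creld2 and the second Hsp90b1 match. The stretches lie at chr2:34772010-34772058 (plus strand) for Hspa5, chr12:17266476-17266524 (plus) for Pdia6, chr8:84847060-84847108 (minus) for Calr, chr10:86705623-86705671 and chr10:86705518-86705566 (minus) for Hsp90b1 and chr15:88819505-88819553 (plus) for Creld2.
Hspa5: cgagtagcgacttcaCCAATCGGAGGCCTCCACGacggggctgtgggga
Pdia6: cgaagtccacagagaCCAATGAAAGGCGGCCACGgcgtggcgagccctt
Calr: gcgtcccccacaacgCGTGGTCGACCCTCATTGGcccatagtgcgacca
Hsp90b1, first: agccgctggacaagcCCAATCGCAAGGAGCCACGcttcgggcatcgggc
Hsp90b1, second: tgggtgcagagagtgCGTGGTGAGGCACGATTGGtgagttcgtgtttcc
Creld2: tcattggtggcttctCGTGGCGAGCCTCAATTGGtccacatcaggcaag

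Immediate early genes, which neurons switch on within minutes of activity, showed the same kind of dependence. Of 20 measured, 16 were negative, with a median of −0.27. The median was 0.02 in Ttr-rich and −0.48 in Ttr-poor libraries, 0.01 without title number 50, −0.40 without number 52 and −0.02 without Cre-negative library 2 alone. Egr3 stood at 108, 156 and 106 CPM in number 50 and at 78.9, 89.8 and 91.0 CPM in number 52, where the Cre-positive libraries held 75.4 CPM at the lowest and 90.6 at the median and all lay below number 50. Its genotype difference was −0.22 (edgeR adjusted p = 1.00), and it rose by 0.51 in number 50 against 52 (adjusted p = 0.0164).

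Reactive astrocyte genes had a median of 0.04, which was 0.16 without Cre-negative library 2 and −0.01 without Cre-positive library 5. It was 0.41 in Ttr-rich and −0.33 in Ttr-poor libraries. Without title number 50 it was 0.36, and without number 52 −0.20. Gfap, the astrocyte filament protein, stood at 511, 540.5 and 689 CPM in the lowest, median and highest Cre-positive library against 429, 464 and 629 CPM in the Cre-negative ones (log2 fold change 0.22, edgeR adjusted p = 0.781). Of its Cre-negative libraries, 5 lay below every Cre-positive one, and the exception was library 2 at 629 CPM. Its value was 0.41 in Ttr-rich and 0.03 in Ttr-poor libraries. Within the Cre-negative group Gfap was 0.27 higher in number 50 than in 52 (edgeR adjusted p = 0.126). With Ttr in the model and without library 2, Gfap passed in edgeR at 0.32 (adjusted p = 0.0422). Library 2 was picked for its value, so that pass is no separate support. Lcn2, a secreted iron carrier of reactive astrocytes, chosen after its values were seen, stood at 0.339, 2.16 and 3.40 CPM in number 50 and at 0.173 to 0.257 CPM in number 52, a difference called by edgeR (3.21, adjusted p = 0.00893).

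For the difference of the genotype effect between Ttr classes, 7 of 13 reactive astrocyte genes, 6 of 20 heat shock genes and 4 of 20 immediate early genes had an unadjusted p under 0.05, against 5.06% of all genes, and 0 passed adjustment in edgeR. The Ttr-poor Cre-negative set holds 2 libraries of number 50 and 1 of number 52, and the Ttr-rich set the reverse. The parts of Ttr class and title number in these values were not separated by any test.

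Mature oligodendrocyte genes lay at a median of 0.11 with 4 of 14 negative, 0.28 with 0 negative in Ttr-rich and −0.10 with 10 negative in Ttr-poor libraries. Without Cre-negative library 2, which held the highest summed level of both groups (9002 CPM where the Cre-negative median was 6245), the median was 0.17 with 0 negative. Without Cre-positive library 5, the highest of its group at 8349 CPM, it was 0.05 with 5 negative, and without title number 52 it was 0.04 with 6 negative. Opalin, a membrane protein of these cells, stood at 25.9 to 35.8 against 19.3 to 32.6 CPM (0.26, edgeR adjusted p = 1.00) and the precursor marker Enpp6 at 8.26 to 13.1 against 6.93 to 9.78 CPM (0.32, adjusted p = 0.830).

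**Figure D5:**
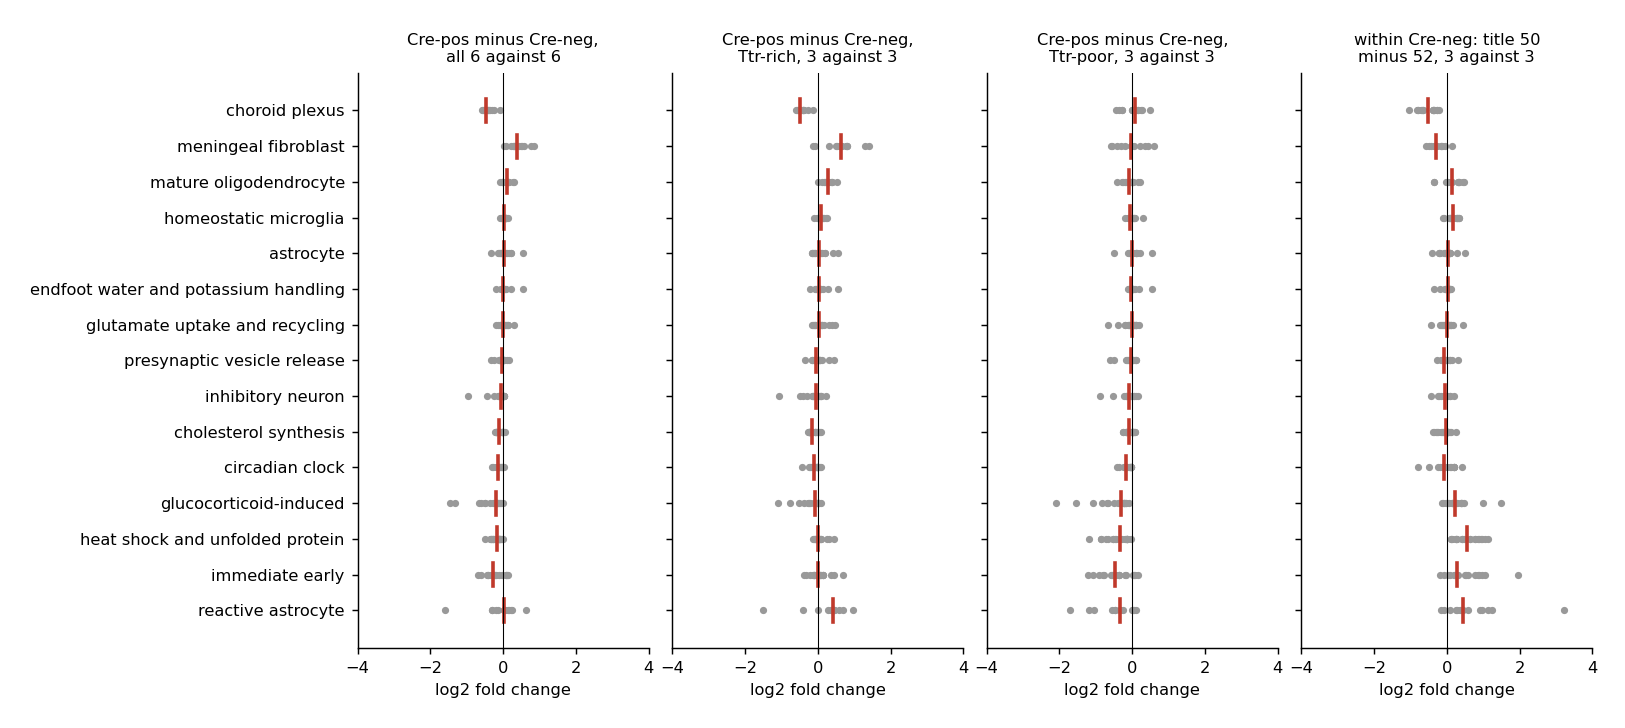
Log2 fold changes of the tested members of 15 gene lists (grey points) and their median (red bar), for Cre-positive minus Cre-negative over all 12 libraries, within the Ttr-rich and the Ttr-poor libraries, and for title number 50 minus 52 within the Cre-negative group. The heat shock median is −0.16, 0.01, −0.33 and 0.55 in these columns, and the cholesterol synthesis median −0.11, −0.16, −0.08 and −0.03.

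The 20 genes of glutamate uptake and recycling had a median of −0.0019 with 10 negative, and none was called. Their summed level, which includes Slc1a2, ran from 7838 to 8437 CPM in Cre-positive and from 8445 to 8877 CPM in Cre-negative libraries, with no overlap. Slc1a2 alone held 2616 to 3235 against 3227 to 3461 CPM of it, so the sum is no separate result on the other members. Slc1a3 stood at 588 to 694 against 647 to 745 CPM (−0.05) and the neuronal carrier Slc1a1 at 102 to 118 against 104 to 115 CPM (0.03), both named outside the rule as well-known members. Slc1a4, a neutral amino acid carrier, stood at 65.9 to 78.5 against 61.5 to 69.9 CPM (0.12, 95% interval 0.01 to 0.23, edgeR adjusted p = 1.00). Glutamine synthetase Glul stood at 1329 to 1597 against 1354 to 1792 CPM (−0.10, interval −0.22 to 0.02). All had overlapping groups.

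Ionotropic glutamate receptors had a median of 0.01 with 4 of 17 negative, but −0.0097 with 10 of 17 negative without Cre-negative library 2 and −0.06 with 11 of 17 in Ttr-rich libraries. Their strongest member by p was the AMPA receptor subunit Gria4, at 63.6 to 85.9 against 78.2 to 87.6 CPM (−0.13, edgeR adjusted p = 1.00). Presynaptic release genes had a median of −0.04 with 14 of 19 negative (−0.02 without Cre-negative library 5, and likewise without Cre-positive library 5), among them the membrane fusion protein Stx1a at 77.8 to 97.4 against 89.0 to 138 CPM (−0.26, adjusted p = 0.739). Excitatory neuron markers lay at −0.02 with 9 of 12 negative, but at 0.02 without Cre-negative library 2 and 0.01 without Cre-positive library 5, each with 5 of 12 negative. Their member of smallest p was the upper-layer marker Cux2, at 22.2 to 41.1 against 26.2 to 53.5 CPM (−0.47, adjusted p = 0.932).

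No other gene of the endfoot list passed beside Aqp4. The 14 measured had a median of 0.0058 with 6 negative, and Aqp4 was the 1 called. The inward potassium channel Kcnj10 stood at 189.6 to 231 against 149 to 213 CPM (0.22, edgeR adjusted p = 0.779). Mlc1, a membrane protein of endfoot junctions, stood at 175 to 202 against 166 to 193 CPM (0.08), and the dystrophin partner Dtna at 153 to 175 against 159 to 183 CPM (−0.05), both with adjusted p = 1.00. In each of the 3 genes the groups overlapped. Astrocyte markers as a list had a median of 0.01 with 8 of 18 negative (−0.0091 with 10 of 18 without Cre-positive library 5). Homeostatic microglia had a median of 0.03 with 4 of 15 negative (0.06 with 2 of 15 without Cre-negative library 2), and Cx3cr1, their chemokine receptor, stood at 60.5 to 68.2 against 57.5 to 66.8 CPM (0.06). The kynurenine list also holds Tph1, Tph2 and Ddc, genes of serotonin synthesis. It had a median of 0.15 with 4 of 12 negative (0.09 with 3 of 12 without Cre-positive library 5). An unadjusted p under 0.05 was reached by 3 of the 12, all higher, where 2.29% of all genes reached it. Among them was Tph1 at 0.187 to 2.47 against 0.0866 to 0.345 CPM (1.89, and 0.76 without Cre-positive library 5). Afmid, also among them, stood at 0.424 to 0.848 against 0.328 to 0.508 CPM (0.71, edgeR adjusted p = 0.626).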

How the data were processed

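RNA of 24 mouse brain samples was measured, and 12 are described here. The authors deposited raw counts per gene as whole numbers; HISAT2, HTSeq 0.6.0, DESeq2 1.6.3 and mm10 are named per the submitters' processing notes, without role or order. The sources used here do not give the strand setting or the annotation release. Of 89 genes picked by the naming rule below, 22 have exons that overlap a gene on the other strand. Slc1a2, Coro2a, Plin4, Sult1a1, Afmid and Glul are among them. Summary lines that name no gene were left out; in the 12 libraries they include reads outside genes of up to 11.1% of the file total. Symbols came from GRCm38 and matched 99.7% of 52636 identifiers. Promoter sequences are RefSeq's (GRCm38.p6).

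Genes were filtered with filterByExpr, given TMM factors and fitted with edgeR 4.0.16 under R 4.3.3 as 4 groups over all 24 libraries (robust quasi-likelihood, 20 residual degrees of freedom), without and with the log2 CPM of Ttr (prior count 0.5) as a covariate (19 degrees). A fit with Ttr class gave within-class values, and one by title number (17 degrees) the differences within a genotype. CPM are computed from the deposited counts. The procedure was tested on simulated data. Each of 30 same-group library pairs differed beyond counting noise (chi-square per gene 6.25 to 121). DESeq2 1.42.0, limma-voom (limma 3.58.1), other scalings, filters, Ttr terms and left-out libraries were alternatives.

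Named were Slc1a2, Ttr, called genes, up to 15 genes of smallest p per fit, 2 to 4 members of smallest p per list and the 6 genes moved most by the Ttr term. Genes with provisional names, or under 1 CPM and neither called nor listed, were left out, and some genes are not reported here. The comparison and the 31 lists were chosen with earlier results of these data known.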

Additional observations from a re-analysis of the deposited data

Results flagged for a closer look

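In each group of 6, the highest or lowest library was set against its nearest neighbour. A library stood apart when that gap, as a share of the group's range, was above Dixon's 95% critical value, which chance gives in about 1 of 20 groups; 21 of 152 groups, from 72 genes and 4 read shares, had one. Cre-positive library 5 gave 7 of them: Nxph1 at 38.9 CPM, Hopx at 38.2, Fdft1 at 84.8, Sqle at 64.1, Drd2 at 7.92, Tcf7l2 at 15.5 and Six3 at 6.18 CPM. In Nxph1, Hopx, Fdft1 and Sqle it lay toward the Cre-negative libraries.

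Cre-negative library 5 gave 6, with 7.46% ambiguous reads, 4.71% unaligned reads, 11.1% of reads outside genes, Rpph1 at 34.4 CPM, Pthlh at 2.28 CPM and Six3 at 0.0495 CPM. Cre-negative library 2 gave 3, with Gfap at 629 CPM, Tsc22d3 at 103.5 CPM and Calb2 at 15.1 CPM. Cre-positive library 6 held the lowest Slc1a2, at 2616 CPM, and the highest Lcn2 of its group, at 0.748 CPM. The remaining ones were Ednrb in Cre-positive library 1 (50.2 CPM), Dkkl1 in Cre-positive library 3 (1.78 CPM) and Gja1 in Cre-negative library 3 (191 CPM).

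The genotype difference of Ebf3 was larger in Ttr-rich than in Ttr-poor libraries by 2.60 on the log2 scale, and edgeR called that difference (adjusted p = 0.0164). It was the 1 gene called of 19726.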

How the results depend on the processing

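Aqp4 was called under every alternative run. Without the Ttr term, edgeR called 5 genes with no filter, 2 on the 12 syn libraries alone and 3 within Ttr-rich libraries, DESeq2 called 14 and limma-voom 7. With it, edgeR called 6 with no filter and 2 on the 12 libraries, DESeq2 15 and limma-voom 9. Leaving out 1 library at a time gave 1 to 3 calls without and 1 to 5 with the term, the highest in both without Cre-positive library 5; the count was also 2 or more without Cre-positive 1 and Cre-negative 3 in both fits, Cre-negative 5 without the term and Cre-negative 2 with it. Alternatives added after seeing the data left out the libraries of a title number: without the term these gave 46 calls (7 higher, 39 lower) without number 52, 1 without 50, 2 without 47 and 5 without 48, and with it 59 (10 higher, 49 lower), 5, 3 and 12. The cause was not tested. Among the genes called without number 52 were Xbp1, at −0.55, and Plin4, at −2.02 (edgeR adjusted p = 0.00627 and 0.0157). Other scalings, a filter of 1 CPM in 6 libraries, Ttr-poor libraries alone, and other forms of the Ttr term gave 1 call each. No paired analysis was possible because the replicate numbers follow accession order and the title numbers are not shared between genotypes. Across scalings the share of positive fold changes was 48.6% with TMM, 50.3% with RLE and 51.9% with upper-quartile factors, and their medians stayed within 0.0039 of 0. With 6 mice a group, intervals cover the spread between these samples.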
